A study of Oryza sativa with 12 samples.

Results

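Jasmonate synthesis and receptor genes were followed in rice culms (jointed stems) sampled at heading. The 8 genes, of 55986 in the deposited table, were taken by locus identifier and not by level: AOS1 (LOC_Os03g55800), AOS2 (LOC_Os03g12500), AOC (LOC_Os03g32314), OPR7 (LOC_Os08g35740), JAR1 (LOC_Os05g50890), MYC2 (LOC_Os10g42430), COI1a (LOC_Os01g63420) and COI1b (LOC_Os05g37690). All 8 were present in the table, and 7 passed the filter on low values. AOS2 did not pass it and is described without a test.

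The series concerns a brittle culm in a double mutant of TAC4 and TAC4L. It holds 12 RNA libraries of the japonica cultivar Zhonghua 11 with 3 each from wild type (WT), TAC4-KO, TAC4L-KO and the combined mutant, written double-KO below. Lines are knockouts by title but knockdowns by their genotype entry, and neither entry gives the type of edit or the number of independent lines. Values are FPKM, fragment counts scaled to gene length and library size. Whether replicates were separate plants is not stated. The p-values therefore measure the spread among these libraries alone, which may be technical.

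Jasmonate is a lipid hormone of wounding, defence, flower opening and stem growth. Lipoxygenases oxidise linolenic acid in the plastid, allene oxide synthase (AOS) and allene oxide cyclase (AOC) turn the product into 12-oxophytodienoic acid, and OPR7 reduces that acid in the peroxisome, where rounds of beta-oxidation yield jasmonic acid. JAR1 joins jasmonic acid to isoleucine, which makes the active hormone. COI1 proteins are the F-box part of the receptor: with the hormone bound they mark JAZ repressors (TIFY proteins in rice) for destruction, which frees MYC2, a bHLH transcription factor that turns on jasmonate-responsive genes, among them synthesis genes and the JAZ genes themselves.

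TAC4 was higher in the libraries labelled as lacking it (9.13 to 13.5 FPKM in TAC4-KO and 13.2 to 16.5 in double-KO against 4.75 to 7.32 in WT). All TAC4L-KO libraries also lay above WT (8.22 to 9.83 FPKM), a change that was not called (limma adjusted p = 0.10). TAC4L lay under 1 FPKM in all 12 libraries. Neither transcript therefore checks the labels, and groups are named by label throughout. The deepest library held 2.58 times the depth of the shallowest, WT replicate 1, as read from the spacing of low FPKM values. The summed FPKM of 6 green tissue markers was 3506 to 7591 in WT, 10658 to 12404 in TAC4-KO, 5654 to 6228 in TAC4L-KO and 6751 to 8086 in double-KO, with all 6 above 0 in every library. In WT and TAC4L-KO that sum is mostly the Rubisco small subunit gene LOC_Os12g19381. In TAC4-KO and double-KO it is not: that gene was at 3571 to 4150 and 1836 to 3068 FPKM. By gene, limma called 4 of 6 higher and 1 lower in double-KO than in WT, and 5 higher and 0 lower in TAC4-KO (0 lower also at an unadjusted p under 0.05). In TAC4L-KO 0 were called, with 2 higher at an unadjusted p under 0.05. Of all tested genes, limma called 20.1% higher and 27.3% lower in double-KO, 18.4% and 16.5% in TAC4-KO, and 3.68% and 3.5% in TAC4L-KO. The light-harvesting gene LOC_Os01g52240 was at 51.2 to 235 FPKM for WT, 4491 to 5365 for TAC4-KO, 241 to 431 for TAC4L-KO and 2973 to 3328 for double-KO. The 3 secondary wall cellulose synthases, markers of the culm's strengthening tissue, summed to 598 to 1039 FPKM in WT, 501 to 1375 in TAC4-KO, 1008 to 1657 in TAC4L-KO and 38.0 to 92.7 in double-KO. Of 7 MADS-box markers, 4 were above 0 in every library, and the sum was 346 to 553 FPKM for WT, 586 to 685 for TAC4-KO, 586 to 716 for TAC4L-KO and 747 to 803 for double-KO. That sum is mostly MADS14, which limma called higher than WT in double-KO and TAC4-KO (adjusted p = 0.0059 and 0.039). MADS16 was called higher in double-KO alone (limma adjusted p = 8.1e-05), and MADS15 was called in none of the mutants. MADS3, MADS4 and MADS58 stayed under 0.1 FPKM. In whole culms, fewer cells of a type and less RNA per cell cannot be told apart, and the part of these marker differences in the results was not tested.

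In short, 3, 2 and 2 of the 7 tested genes were called in double-KO, TAC4-KO and TAC4L-KO against WT. Of all tested genes, 47.4%, 34.9% and 7.18% were called. AOS1, of the first committed step of synthesis, was lower in each of the 3 mutants than in every WT library. COI1a was higher in double-KO and TAC4-KO, and its change in TAC4L-KO did not pass. The TAC4-KO call of COI1a was lost without any 1 of the 6 libraries compared. Its paralog COI1b passed no test against WT, and of these 2 COI1a was the more abundant transcript in double-KO. OPR7 was lower in double-KO. MYC2 was lower in TAC4L-KO, where AOC also had its lowest mean without passing the test. The TAC4L-KO calls of MYC2 and AOS1 were lost under 9 and 11 of 21 alternative fits. JAR1 had the narrowest range of genotype means among the 7 tested genes.

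**Figure D1:**
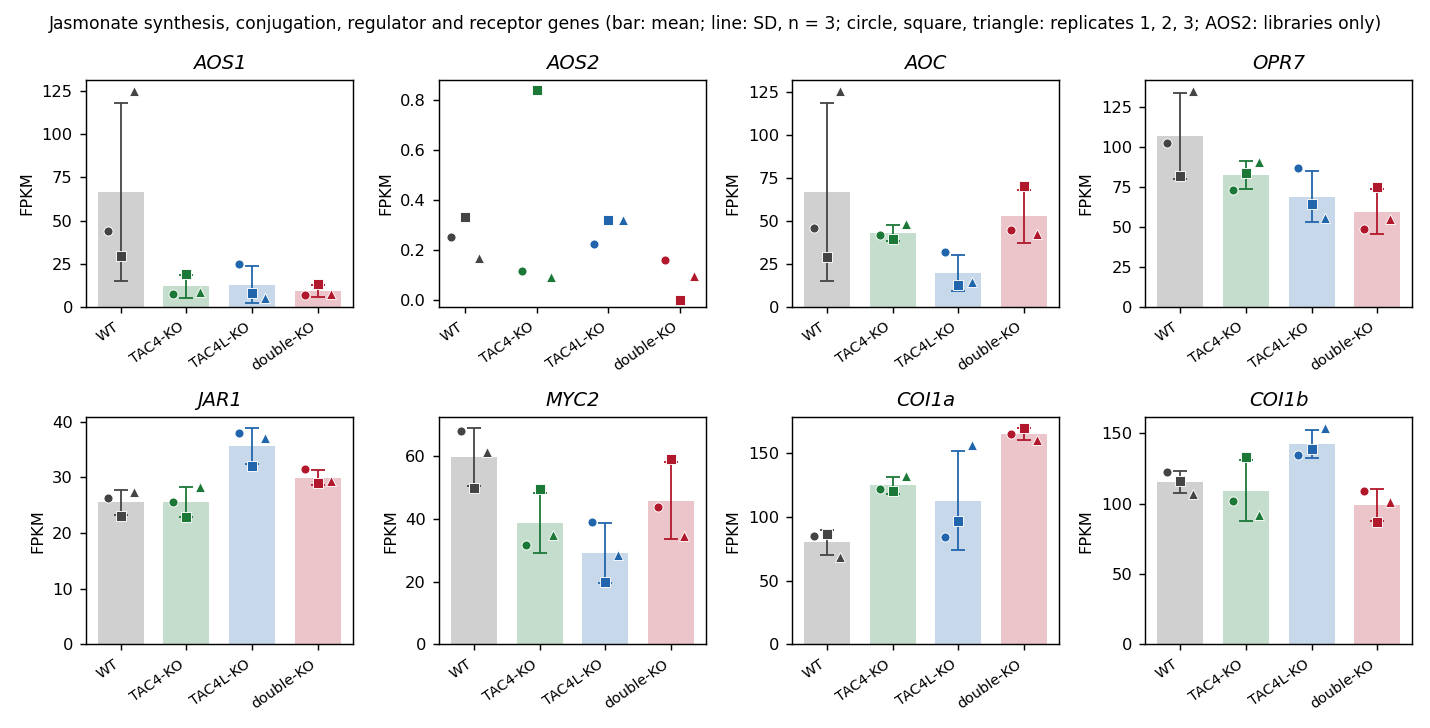
FPKM of the 8 genes in each of the 12 libraries by genotype, with the mean as a bar and the SD as a line (n = 3), except AOS2, for which only the libraries are drawn. All mutant values of AOS1 lie below the lowest WT value of 29.8 FPKM, and the 3 double-KO values of COI1a, 160 to 170 FPKM, lie above all others.

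AOS1 encodes the enzyme that commits oxidised linolenic acid to the jasmonate branch. WT replicates 1 to 3 held 44.2, 29.8 and 125 FPKM, against 7.66, 19.4 and 8.74 for TAC4-KO. The TAC4L-KO replicates held 25.1, 7.88 and 5.46 FPKM, and those of double-KO 7.22, 13.1 and 7.49. No mutant library reached the lowest WT library, while the WT libraries themselves differed 4.20-fold. On the log2(FPKM + 1) scale, on which all changes below are given, AOS1 fell by 2.49 in double-KO (SE 0.58, limma adjusted p = 0.0046). In TAC4-KO the change was -2.22 (SE 0.58, limma adjusted p = 0.013). In TAC4L-KO it was -2.29 (SE 0.58, limma adjusted p = 0.040). The mutants did not differ detectably from each other: the steps between neighbours in the order double-KO, TAC4L-KO, TAC4-KO were 0.20 and 0.07 (limma adjusted p = 0.81 and 0.96).

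The 3 AOS1 calls were not equally firm. That of double-KO was kept under each of 21 alternatives, with adjusted p up to 0.020. That of TAC4-KO was lost only without TAC4-KO replicate 1 (limma adjusted p = 0.051). That of TAC4L-KO was lost under 11 of 21, among them the replicate block (limma adjusted p = 0.073) and the fit of the compared groups alone (limma adjusted p = 0.13), and without WT replicate 1 or 3, TAC4-KO replicate 3, TAC4L-KO replicate 2 or 3, or any 1 of the double-KO libraries. The 3 comparisons share the WT libraries and so are not independent.

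AOS2, the second allene oxide synthase gene, was barely present. Its listed FPKM was 0.253, 0.331 and 0.165 for WT, 0.116, 0.838 and 0.0916 for TAC4-KO, 0.224, 0.317 and 0.318 for TAC4L-KO, and 0.160, 0 and 0.0960 for double-KO. If the smallest step shared by these values is 1 fragment, they rest on 0 to 29 fragments per library, with the 29 in TAC4-KO replicate 2. All double-KO values lay below all WT and all TAC4L-KO values, by a narrow margin for WT (0.160 against 0.165 FPKM), and TAC4-KO overlapped the other groups. The log2 ratio of AOS1 to AOS2, each as FPKM + 1, was lower in double-KO than in WT by 2.29 (difference -2.29). In TAC4-KO and TAC4L-KO the differences from WT were alike, at -2.29 and -2.33. In an exact two-sided permutation test p was 0.1 for each mutant, the smallest that 3 against 3 libraries allow. Benjamini-Hochberg adjustment over the 12 ratio tests gave 0.17. With AOS2 near 0, that ratio rests on AOS1.

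AOC encodes the next enzyme, which closes the ring of the jasmonate skeleton, and is a single gene in rice. WT replicates held 45.8, 29.2 and 126 FPKM, against 41.6, 39.6 and 48.4 for TAC4-KO. The TAC4L-KO replicates held 31.8, 12.8 and 14.7 FPKM, and those of double-KO 44.6, 70.6 and 42.7. The values of TAC4-KO and double-KO fell inside the WT range, and TAC4L-KO replicates 2 and 3 lay below every other library. None of the changes against WT passed the test: they were -0.11 in double-KO (95% interval -1.12 to 0.90), -0.36 in TAC4-KO (-1.37 to 0.65) and -1.55 in TAC4L-KO (limma adjusted p = 0.061). The last passed without WT replicate 2 or TAC4L-KO replicate 1, with limma adjusted p = 0.027 and 0.026. The small differences of double-KO and TAC4-KO turned to 0.48 and 0.23 without WT replicate 3. AOC was higher in double-KO than in TAC4L-KO (1.44, SE 0.46, limma adjusted p = 0.031), with no overlap of the groups, a call lost without TAC4L-KO replicate 2 or 3 or any 1 of the double-KO libraries (log2 change 1.20 to 1.57).

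Within a library, AOS1 and AOC stood close to equal in WT and not in the mutants. The ratio of their FPKM values was 0.964, 1.02 and 0.996 in WT replicates 1 to 3, although each gene varied more than 4-fold between those libraries. For TAC4-KO it was 0.184, 0.491 and 0.180, for TAC4L-KO 0.790, 0.616 and 0.371, and for double-KO 0.162, 0.185 and 0.175. Every mutant library lay below every WT library, double-KO libraries lay within a narrow range, and TAC4L-KO lay above TAC4-KO replicates 1 and 3. A ratio within a library does not depend on the scaling between libraries. It was singled out after its values were seen and was given no test.

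OPR7 encodes the reductase of the peroxisome that acts on the product of AOC. WT replicates held 103, 82.1 and 135 FPKM, against 73.2, 83.9 and 90.3 for TAC4-KO. Those of TAC4L-KO held 86.8, 64.6 and 55.7 FPKM, and those of double-KO 48.5, 75.2 and 54.8. WT had the highest mean and double-KO the lowest, and no step between neighbours in that order passed the test. OPR7 fell by 0.83 in double-KO against WT (SE 0.24, limma adjusted p = 0.013), where the groups did not overlap, and the changes of -0.34 in TAC4-KO and -0.62 in TAC4L-KO did not pass (limma adjusted p = 0.27 and 0.11). The double-KO call was lost without double-KO replicate 1 (-0.69, limma adjusted p = 0.054).

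JAR1, whose product makes the active hormone conjugate, had the narrowest range of genotype means among the 7 tested genes. WT replicates held 26.3, 23.0 and 27.4 FPKM, against 25.6, 22.9 and 28.3 for TAC4-KO. Those of TAC4L-KO held 38.0, 32.1 and 37.0 FPKM, and those of double-KO 31.5, 29.1 and 29.4. All TAC4L-KO and all double-KO libraries lay above all WT libraries, and TAC4-KO overlapped WT. The changes were 0.47 in TAC4L-KO (95% interval 0.15 to 0.79, limma adjusted p = 0.070), 0.22 in double-KO (-0.09 to 0.54, limma adjusted p = 0.23) and 0.00 in TAC4-KO (-0.32 to 0.32), and none passed.

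MYC2 encodes the main activator of the jasmonate response. WT replicates held 68.0, 49.6 and 61.2 FPKM, against 31.7, 49.4 and 34.7 for TAC4-KO. The TAC4L-KO replicates held 38.9, 19.7 and 28.5 FPKM, and those of double-KO 43.6, 58.9 and 34.6. TAC4L-KO and TAC4-KO both lay wholly below WT, TAC4-KO replicate 2 only just (49.4 against 49.6 FPKM), and double-KO overlapped WT. MYC2 fell by 1.05 in TAC4L-KO (SE 0.27, limma adjusted p = 0.042). The changes of -0.63 in TAC4-KO and -0.40 in double-KO did not pass (limma adjusted p = 0.093 and 0.25). The TAC4L-KO call was lost under the replicate block (limma adjusted p = 0.071), in the fit of the compared groups alone (limma adjusted p = 0.12), and without WT replicate 1 or 3, TAC4-KO replicate 3, TAC4L-KO replicate 2 or 3, or double-KO replicate 1.

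Of the 7 genes, MYC2 alone passed the test of additivity, which sets double-KO against both single-mutant changes added together. That interaction was 1.28 (SE 0.39, limma adjusted p = 0.045), with double-KO above the level the sum gives. AOS1 and AOC had interactions of 2.02 and 1.80 that did not pass (SE 0.82 and 0.65, limma adjusted p = 0.11 and 0.082). Of the 7, 1 was called, and it was positive, beside 15.1% of all 19184 tested genes called in either direction and 4.11% called positive. The MYC2 call was lost under the replicate block (limma adjusted p = 0.072) and without WT replicate 1 or 3, TAC4-KO replicate 1 or 3, TAC4L-KO replicate 2 or 3, or double-KO replicate 1 or 2.

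COI1a and COI1b encode closely related F-box subunits of the hormone receptor. For COI1a, WT replicates held 85.0, 86.7 and 68.9 FPKM, against 122, 120 and 132 for TAC4-KO. The TAC4L-KO replicates held 84.1, 96.9 and 157 FPKM, and those of double-KO 165, 170 and 160. Double-KO lay above all other libraries with a spread of 1.06-fold, TAC4-KO lay above WT, and TAC4L-KO replicates ran from the WT range to near double-KO. COI1a rose by 1.04 in double-KO (SE 0.21, limma adjusted p = 0.0021), kept under each of 21 alternatives (0.93 to 1.14). It rose by 0.64 in TAC4-KO (SE 0.21, limma adjusted p = 0.036). That call did not survive the replicate block (limma adjusted p = 0.056) or the omission of any 1 of the 6 libraries compared (limma adjusted p = 0.050 to 0.11). In TAC4L-KO the change of 0.44 did not pass (95% interval -0.02 to 0.90, limma adjusted p = 0.19).

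For COI1b, WT replicates held 123, 116 and 107 FPKM, against 102, 134 and 92.3 for TAC4-KO. The TAC4L-KO replicates held 135, 139 and 154 FPKM, and those of double-KO 109, 86.9 and 101. TAC4L-KO lay above WT and double-KO, whereas TAC4-KO and double-KO overlapped WT. No change against WT passed: -0.22 in double-KO (95% interval -0.60 to 0.15), -0.09 in TAC4-KO (-0.47 to 0.28, and 0.02 without TAC4-KO replicate 3) and 0.30 in TAC4L-KO (-0.07 to 0.68).

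Double-KO and TAC4L-KO differed in both receptor genes, in opposite directions. COI1a was higher in double-KO by 0.60 (SE 0.21, limma adjusted p = 0.046) and COI1b lower by 0.53 (change -0.53, SE 0.17, limma adjusted p = 0.033), with no overlap for either. Neither call was firm. That of COI1a was lost under 14 of 21 alternatives, among them the replicate block, quantile normalization and the omission of TAC4L-KO replicate 1 (0.42), TAC4L-KO replicate 2, WT replicate 2, or any 1 of the TAC4-KO or double-KO libraries. That of COI1b was lost under 8, among them the replicate block, median-of-ratios scaling (-0.30) and the omission of any 1 of the TAC4L-KO libraries or of double-KO replicate 2 or 3.

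The balance of the receptor transcripts reversed between WT and double-KO. The COI1a to COI1b ratio of FPKM was 0.693, 0.745 and 0.645 for WT, 1.20, 0.901 and 1.44 for TAC4-KO, 0.623, 0.697 and 1.02 for TAC4L-KO, and 1.51, 1.95 and 1.58 for double-KO. All WT libraries held more COI1b and all double-KO libraries more COI1a, and each single mutant had libraries on both sides of equality. The mean log2 ratio of FPKM + 1 was -0.52 ± 0.10 in WT and 0.73 ± 0.20 in double-KO (SD, n = 3), a difference of 1.26. An exact two-sided permutation test gave p = 0.1, the smallest that 3 against 3 allow, and 0.17 after Benjamini-Hochberg adjustment over the 12 ratio tests. For TAC4-KO the difference was 0.73 (exact permutation p = 0.1) and for TAC4L-KO 0.13 (exact permutation p = 0.8). How reads shared by similar copies were counted is not given in the sources used here, which limits any comparison of the 2 genes' levels.

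**Figure D2:**
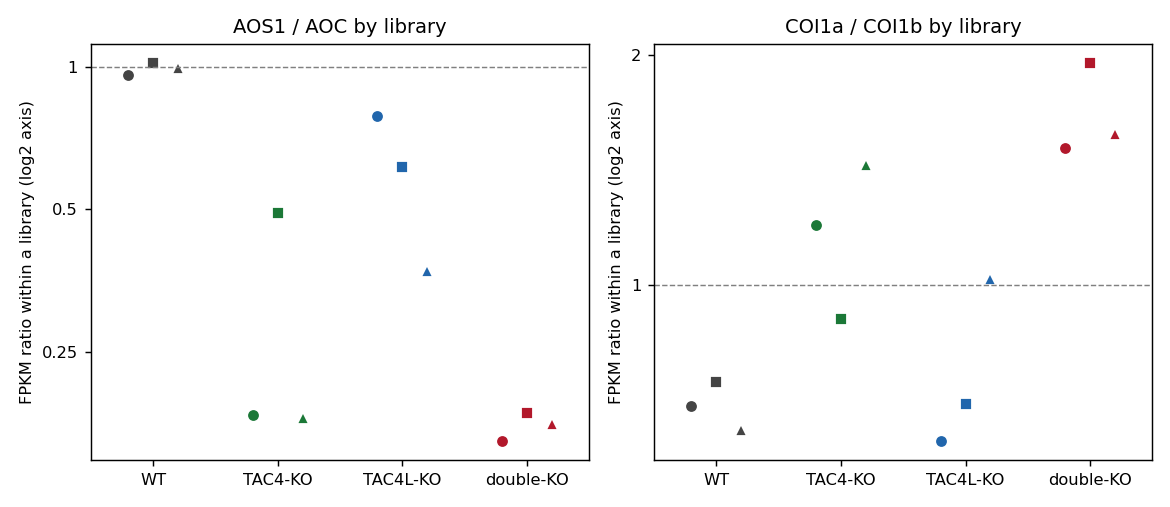
Ratio of FPKM values within each library, on a log2 axis, for AOS1 over AOC and for COI1a over COI1b, by genotype. Circles, squares and triangles are replicates 1, 2 and 3, and the dashed line marks equal levels. AOS1 to AOC lies near 1 in WT (0.964 to 1.02) and at 0.162 to 0.185 in double-KO, and COI1a to COI1b rises from 0.645 to 0.745 in WT to 1.51 to 1.95 in double-KO.

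Counts of the 7 tested genes were read beside those of all 19184. In double-KO against WT, 1 was higher and 2 lower, beside 47.4% of all genes called (20.1% higher and 27.3% lower). In TAC4-KO against WT, 1 was higher and 1 lower, beside 34.9% (18.4% and 16.5%). In TAC4L-KO against WT limma called 0 higher, and 2 lower, beside 7.18% (3.68% and 3.5%). At an unadjusted p under 0.05 JAR1 was higher there and 4 were lower, AOC and OPR7 besides AOS1 and MYC2. Groups did not overlap for 4, 3 and 4 of the 7 in these comparisons, beside 54.3%, 48.1% and 30.2% of all genes. The median change of the 7 was -0.22, -0.34 and -0.62 for double-KO, TAC4-KO and TAC4L-KO, against -0.10, 0.04 and 0.10 for all tested genes. Quantile normalization moved the latter to 0.08, 0.05 and 0.06.

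Between the mutants, 2 of 7 were higher and 1 lower in double-KO than in TAC4L-KO, beside 35% of all genes (11.6% higher and 23.4% lower), and groups did not overlap for 4, beside 52.4%. In double-KO against TAC4-KO limma called 0 of 7, and 0 at an unadjusted p under 0.05, beside 15% of all genes. In TAC4-KO against TAC4L-KO it called 0 of 7, beside 3.04%, with AOC higher and JAR1 and COI1b lower at an unadjusted p under 0.05. When the genotypes were ordered by mean for each gene, 1 of the 21 steps between neighbours passed, that of AOS1 from TAC4-KO up to WT. A limma F test over the 4 genotypes called 6 of 7, all but COI1b (adjusted p = 0.010 for COI1a to 0.047 for OPR7, and 0.089 for COI1b), beside 51.5% of all genes. That count was 2 under the replicate block and 3 without a filter. It was 3 without WT replicate 1, TAC4-KO replicate 1 or double-KO replicate 3, and 2 without TAC4-KO replicate 3, TAC4L-KO replicate 2 or 3, or double-KO replicate 1.

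**Figure D3:**
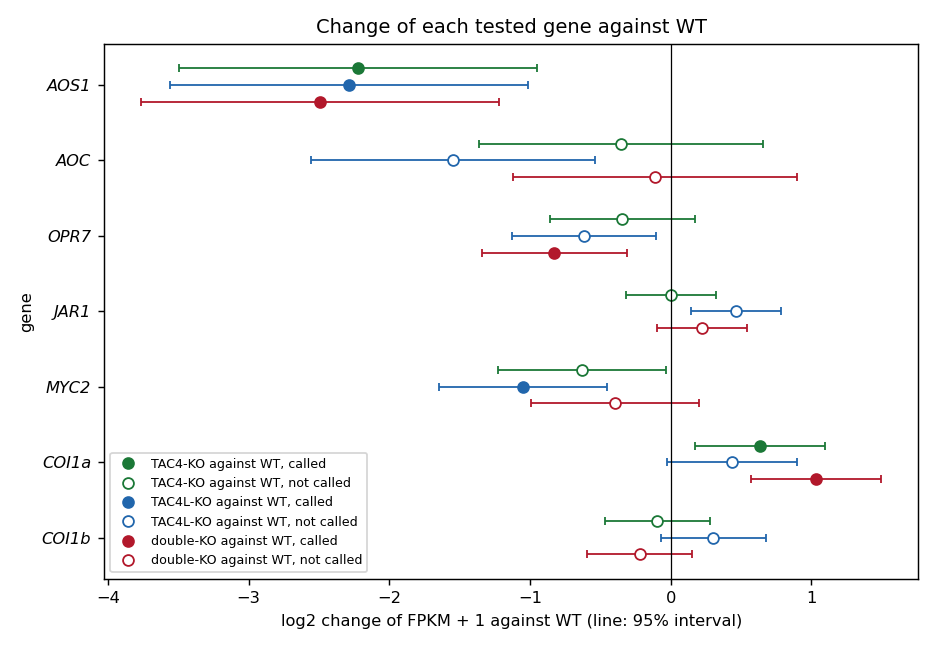
Change of the 7 tested genes in each mutant against WT, as log2(FPKM + 1), with lines for the 95% interval. Filled points passed limma at an adjusted p under 0.05, and open points did not. AOS1 is filled in all 3 mutants (-2.22 to -2.49), COI1a in double-KO and TAC4-KO, OPR7 in double-KO and MYC2 in TAC4L-KO.

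Within each group, the library with the highest AOS1 value also tended to lead in the JAZ genes. It was WT replicate 3, TAC4-KO replicate 2, TAC4L-KO replicate 1 and double-KO replicate 2, and these held the highest value of their group for 8, 7, 10 and 8 of the 10 tested JAZ genes. They also held it for 4, 4, 3 and 5 of the 6 tested lipoxygenases. For the 10 tested genes of other synthesis and turnover the counts were 6, 6, 5 and 3. For the 7 tested synthesis and receptor genes they were 4, 3, 5 and 5, with AOS1 among them by choice of the library. Of those 7, 2, 3, 2 and 2 had their lowest value there. The share of all tested genes that were highest in these libraries was not computed. WT replicate 3 also had the lowest value of its group for all 6 green tissue markers. It was lowest for the 3 wall cellulose synthases too, as were TAC4-KO replicate 2 and TAC4L-KO replicate 1, whereas double-KO replicate 2 was highest for them. What these libraries share was not tested. For TIFY11d, a JAZ repressor gene, TAC4L-KO replicates held 45.9, 2.72 and 0.968 FPKM, beside 61.2 to 155 for WT and 1.01 to 1.78 for double-KO. TAC4L-KO replicate 1 lay nearer WT and the other 2 nearer double-KO. Without WT replicate 3 and TAC4L-KO replicate 1 together, an alternative chosen after seeing the data, AOS1 stayed lower and COI1a higher in double-KO, the COI1a call of TAC4-KO was lost (limma adjusted p = 0.075), and 3 of 7 interactions were called in place of 1.

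The other genes of the pathway followed no single direction. Of 12 lipoxygenase genes, which act before AOS1, 6 passed the filter, and in double-KO 1 was higher and 2 were lower than in WT, beside 20.1% and 27.3% of all genes. LOC_Os04g37430 averaged 7.56 ± 2.89 FPKM (SD, n = 3) for WT and 0.721 ± 0.184 for double-KO, a change of -2.26 (SE 0.37, limma adjusted p = 5.2e-04). LOC_Os05g23880 moved the other way: WT replicates held 3.66, 8.80 and 2.00 FPKM, those of double-KO 18.0, 26.4 and 12.7, and those of TAC4-KO 49.5, 65.5 and 30.8 (log2 1.90 and 3.20, limma adjusted p = 0.0034 and 6.1e-04). LOC_Os03g49380 fell by 1.30 in double-KO (limma adjusted p = 0.0061). The lipoxygenases include forms that feed other oxylipins, and the list does not separate them. In TAC4-KO 2 were higher and 1 lower, beside 18.4% and 16.5% of all genes, and the call of LOC_Os03g08220, at 0.98, was lost under 12 of 21 alternatives, 8 of them the omission of a library. In TAC4L-KO 1 was higher, LOC_Os05g23880, a call lost without TAC4L-KO replicate 3 and in the fit of the compared groups alone. There 1 was lower, LOC_Os04g37430, a call lost under 12 of 20 alternatives, 9 of them the omission of a library. Of all genes 3.68% were higher and 3.5% lower.

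Of 15 genes for the remaining steps and for turnover, 10 were tested, and 2 were higher and 5 lower in double-KO, beside 20.1% and 27.3% of all genes. The peroxisomal thiolase gene LOC_Os02g57260, of the beta-oxidation that finishes jasmonic acid and also breaks down other fatty acids, averaged 194 ± 30.4 FPKM (SD, n = 3) for WT and 56.0 ± 13.2 for double-KO, a change of -1.79 (SE 0.23, limma adjusted p = 1.3e-04). The acyl-CoA oxidase gene LOC_Os11g39220 of the same cycle averaged 17.3 ± 3.75 and 2.89 ± 0.962 FPKM, a change of -2.24 (SE 0.29, limma adjusted p = 1.3e-04). The 2 higher genes were another thiolase gene, LOC_Os10g31950 (0.87, limma adjusted p = 0.032), and AIM1 (0.47, limma adjusted p = 0.048). For LOC_Os10g31950 the groups overlapped, and calls of these 2 genes were not checked under the alternatives. CYP94C2b, which oxidises and so inactivates the hormone conjugate, was at 9.08, 8.41 and 68.0 FPKM for WT, 15.5, 0.168 and 0.191 for TAC4L-KO, 0.191, 0.248 and 0.121 for TAC4-KO, and 0, 0 and 0.0846 for double-KO. It was lower in double-KO and TAC4-KO (limma adjusted p = 0.0035 and 0.0077), and TAC4L-KO replicate 1 again lay with WT. LOC_Os06g11210, of the OPR family, fell by 2.66 in double-KO (limma adjusted p = 0.0023) from 3.01, 2.99 and 23.5 FPKM in WT. In TAC4-KO 1 of the 10 was higher, LOC_Os10g31950 (1.18, limma adjusted p = 0.012), and 4 lower, beside 18.4% and 16.5% of all genes. In TAC4L-KO 1 was lower, beside 3.5%: LOC_Os06g11210 (-2.60), a call lost without TAC4L-KO replicate 2 or 3 and in the fit of the compared groups alone.

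Of 13 JAZ genes, 10 were tested, and 6, 4 and 2 were lower in double-KO, TAC4-KO and TAC4L-KO, beside 27.3%, 16.5% and 3.5% of all genes. None was higher in these comparisons (limma), also at an unadjusted p under 0.05. TIFY11c, TIFY11d and TIFY11e were lower in double-KO (log2 -4.07, -5.16 and -3.28) and in TAC4-KO (-3.74, -4.68 and -3.06), calls kept under each alternative that could be fitted. The 2 calls of TAC4L-KO, TIFY11d and TIFY10a, were lost under 11 and 9 of 21 alternatives, each without TAC4L-KO replicate 2 or 3, WT replicate 1 or 3, TAC4-KO replicate 3 or double-KO replicate 1, and that of TIFY11d also without double-KO replicate 2 or 3. The median JAZ change was -1.26, -1.13 and -1.55 for double-KO, TAC4-KO and TAC4L-KO, beside -0.10, 0.04 and 0.10 for all tested genes. Of 5 other receptor and response genes, 3 were tested, and 2 were lower in double-KO and 2 in TAC4-KO, beside 27.3% and 16.5% of all genes. In TAC4L-KO limma called 0, with 2 lower at an unadjusted p under 0.05. COI2, a further F-box gene of the COI family, averaged 10.5 ± 0.777 FPKM (SD, n = 3) for WT and 5.68 ± 0.609 for double-KO. Its change of -0.79 (SE 0.15, limma adjusted p = 0.0016) was opposite in sign to that of COI1a. JAMYB, a jasmonate-responsive MYB gene, was lower in double-KO (-2.15, limma adjusted p = 0.029), a call lost with the replicate block, with no filter, and with WT replicate 2 or 3 or either of double-KO replicates 1 and 2 left out. The TAC4-KO calls of COI2 and JAMYB were lost under 5 and 7 of 21 alternatives.

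**Figure D4:**
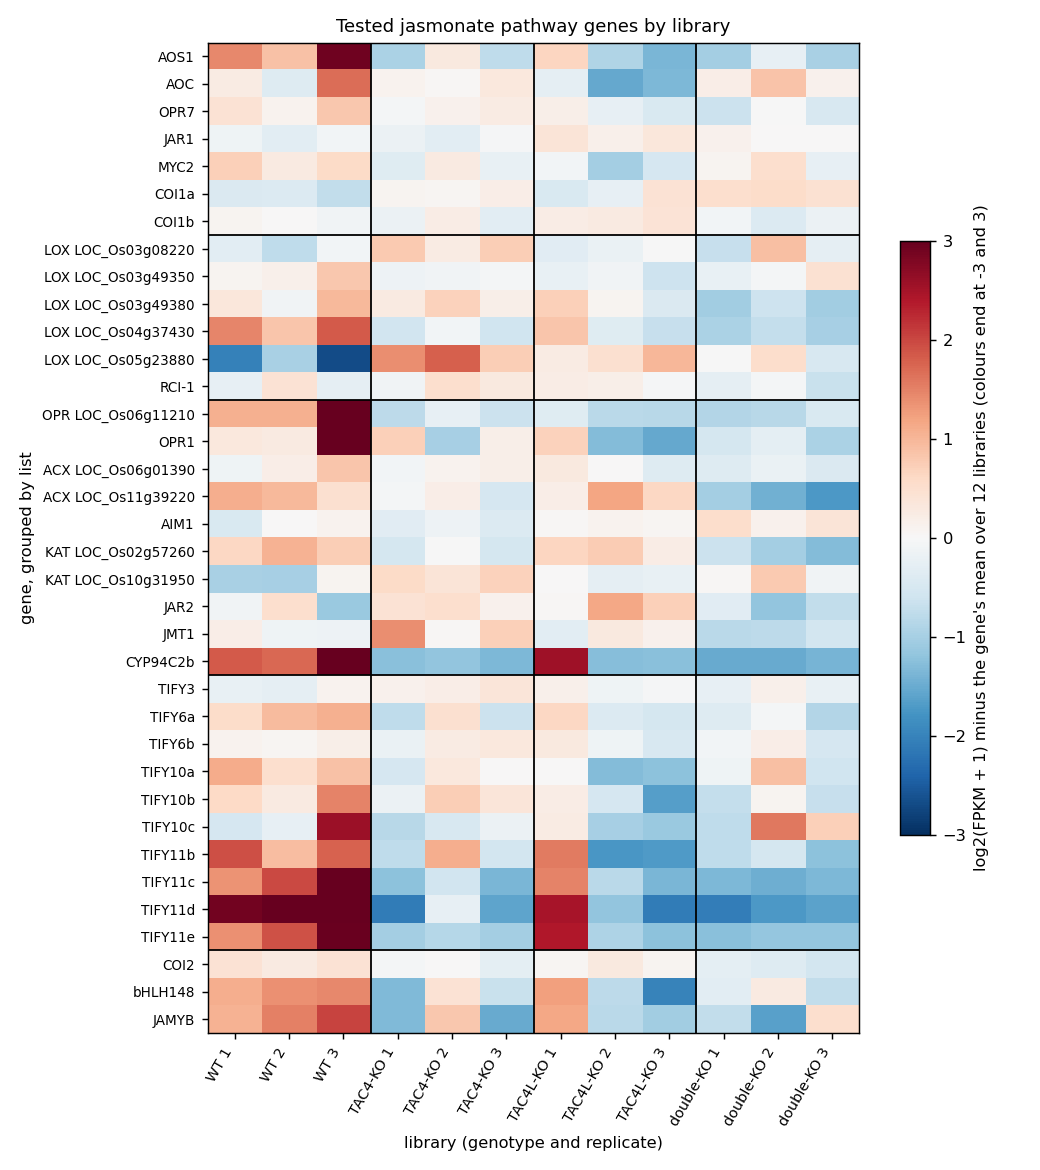
Level of the tested jasmonate pathway genes in each library, as log2(FPKM + 1) minus the gene's mean over the 12 libraries, with colours ending at -3 and 3. Rows are grouped, from the top, as the 7 tested synthesis and receptor genes, lipoxygenases, other synthesis and turnover, JAZ repressors, and other receptor and response genes. TAC4L-KO replicate 1 resembles WT in CYP94C2b and the TIFY11 genes, whereas COI1a is highest in double-KO.

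By level, COI1b led in WT (115 ± 7.95 FPKM, SD, n = 3), followed by OPR7 (107 ± 26.8), COI1a (80.2 ± 9.84), AOC (66.9 ± 51.6), AOS1 (66.4 ± 51.4), MYC2 (59.6 ± 9.27) and JAR1 (25.6 ± 2.27). In double-KO the order was COI1a (165 ± 4.86), COI1b (99.1 ± 11.2), OPR7 (59.5 ± 14.0), AOC (52.7 ± 15.6), MYC2 (45.7 ± 12.3), JAR1 (30.0 ± 1.36) and AOS1 (9.27 ± 3.31). AOS1 thus went from a level like that of AOC to the lowest of the 7. The WT means of AOC, AOS1 and MYC2 lay within their replicate spread of each other.

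The members were not each other's closest neighbours in pattern. Likeness was measured as the mean absolute difference of log2 values, each gene centred on its own mean, over the 12 libraries. The gene nearest to AOS1 was LOC_Os02g21040 (difference 0.25), at 8.38, 4.39 and 18.1 FPKM in WT and 0.657, 1.01 and 0.507 in double-KO. The gene nearest to AOC was LOC_Os03g18160 (difference 0.26), at 47.4, 40.4 and 103 FPKM for WT and 15.0 to 40.2 for TAC4L-KO. The member nearest to AOS1 was OPR7, in place 1727 among 19183 genes, and the member nearest to AOC was MYC2, in place 281. Genes that vary little lie near one another by this measure whatever their pattern.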

How the data were processed

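The authors deposited 1 table of FPKM values with a column per library. Per the labels' protocols, mRNA was selected by its poly(A) tail and reverse transcribed from random hexamers. HISAT2 is named per the submitters' processing notes. Its version, the quantifier, genome build and strand setting were not given in the sources used here, so overlapping, antisense and closely similar genes are uncertain. Read counts were not used, and depth was inferred only between libraries.

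From these values, log2(FPKM + 1) was fitted with limma 3.58.1 (R 4.3.3, trended prior, 8 residual degrees of freedom) over all 12 libraries, for the 19184 genes averaging 1 FPKM or more. Benjamini-Hochberg adjustment ran over all of them, and an adjusted p under 0.05 counted as a call. The fit was tested on simulated data. Alternatives changed the pseudocount, filter, scaling, prior, libraries and replicate block.

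Locus identifiers were named from published rice nomenclature. The reference (ASM3414082v1) matched 0 of 55986 identifiers, but holds 7 of the 8 symbols on the chromosome that the locus states, and MYC2 was not found. The 8 genes and the pathway lists were chosen with earlier results of these data known. The text names all 8 genes, the targeted genes, up to 4 genes per pathway list by smallest F test p, and the gene nearest in pattern to AOS1 and to AOC. LOC_Os10g31950 and AIM1 fall outside these rules and were named after their values were seen.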

Additional observations from a re-analysis of the deposited data

Results flagged for a closer look

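MYC2 differed between lines in its response to the label TAC4L-KO: from WT to TAC4L-KO the mean went from 59.6 ± 9.27 to 29.0 ± 9.61 FPKM (SD, n = 3), but from TAC4-KO to double-KO it went from 38.6 ± 9.49 to 45.7 ± 12.3. The test of that difference, the interaction, gave 1.28 (log2, SE 0.39) with a limma adjusted p = 0.045. Over 20 alternatives the value ran from 1.04 to 1.55, always positive, and the call was lost under 10.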

How the results depend on the processing

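With 1 library left out, the count of the 7 genes called ran from 2 to 3 in double-KO against WT, 0 to 2 in TAC4-KO against WT, 0 to 3 in TAC4L-KO against WT, 0 to 3 in double-KO against TAC4L-KO, 0 to 3 for the interaction and 2 to 5 for the F test. Without a filter, 0 were called in TAC4L-KO against WT, 1 in double-KO against TAC4L-KO, 0 for the interaction and 3 in the F test. Fits of the compared groups alone called 0 in TAC4L-KO against WT. The replicate block called 1 in TAC4-KO against WT, 0 in TAC4L-KO against WT, 1 in double-KO against TAC4L-KO, 0 for the interaction and 2 in the F test, and changed no call of the 7 in double-KO against WT. No steady pairing by replicate number was seen: same-numbered residuals correlated above 0.1 in 4 of 18 pairs (-0.427 to 0.268). With 3 libraries per group this check cannot exclude pairing. Without WT replicate 3 and TAC4L-KO replicate 1 together, chosen after seeing the data, 1 was called in TAC4-KO against WT, 1 in TAC4-KO against TAC4L-KO and 3 for the interaction. The cause of these changes was not tested.

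Direction turned only for values that were not called. The near-0 value of JAR1, TAC4-KO against WT, became -0.039 under median-of-ratios scaling and ran from -0.071 to 0.076 with 1 library left out. With 1 left out, AOC ran from -0.56 to 0.48 in double-KO and from -0.81 to 0.23 in TAC4-KO, and COI1b from -0.25 to 0.018 in TAC4-KO. AOC became 0.48 and 0.23 also without the 2 libraries named above. Of 1119 recomputed values of single genes, 967 kept direction and side of the threshold, 139 lost a call, 3 (AOC in TAC4L-KO) gained one and 10 turned. Precision is limited by 3 libraries per group, and for AOS2 by few fragments.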

Other observations

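OPR7 and AOC, which act in sequence, did not keep the near-equal levels seen for AOS1 and AOC in WT. Their ratio (OPR7 over AOC, FPKM) was 2.24, 2.81 and 1.08 for WT, 1.76, 2.12 and 1.86 for TAC4-KO, 2.73, 5.04 and 3.78 for TAC4L-KO, and 1.09, 1.07 and 1.28 for double-KO. TAC4L-KO replicates 2 and 3 lay above all other libraries, and double-KO lay below all TAC4-KO and TAC4L-KO libraries. The ratio was singled out after its values were seen and was given no test.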
